A study of Mus musculus with 16 samples.

Results

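The F-box genes described here are those of the RNA table whose symbol starts with Fbxo or Fbxl followed by a number. The rule found 55 genes among the 25965 entries of the table, of which 37 are Fbxo and 18 are Fbxl genes, and it used the symbol and no measured value. F-box genes with other kinds of symbol (Fbxw genes, Skp2, Ccnf, Btrc, Kdm2a, Kdm2b and others) were outside the rule and are given separately. The oocytes came from wild-type C57BL/6 mice (C57BL/6Babr in the study's methods), were released from the ovary with enzymes, washed and sorted by diameter. The 10–30 μm class came from mice of post-natal days 5 to 7, the 40–45 μm class from days 7 to 12, the 50–55 μm class from days 9 to 14, the 60–65 μm class from days 13 to 16, and fully grown germinal vesicle (GV) oocytes from day 20. Size and age of the mouse rose together and cannot be told apart. RNA was sequenced from 2 pools of oocytes (A and B) in each of the 4 size classes, with 1 column of values for GV oocytes. CpG methylation was measured by reduced representation bisulphite sequencing (RRBS, which samples CpG-rich fragments) in 2 libraries of each class from 40–45 μm upwards (GV excepted), and by post-bisulphite adapter tagging (PBAT, which samples the whole genome) in 1 library of the 60–65 μm class. The labels do not say that the pools came from separate animals, so p-values measure the spread between these pools.

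F-box proteins are the substrate-recognition subunits of SCF ubiquitin ligases. The F-box binds Skp1, which attaches it to the cullin Cul1 and the RING protein Rbx1, and the rest of the protein binds the target that is to be ubiquitylated and, in most cases, degraded. Fbxl proteins bind their targets through leucine-rich repeats, whereas Fbxo proteins carry other domains. In oocytes, F-box proteins are best known for control of the anaphase-promoting complex (APC/C), the other large ubiquitin ligase of the cell cycle. Oocytes grow for days while arrested in meiotic prophase and store transcripts that are used at meiotic resumption and after fertilisation.

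RPKM values give reads per kb of exon relative to library size, so they can be compared between genes and libraries, and they do not show the amount of RNA per oocyte. In bulk pools, fewer cells that express a gene and less RNA per cell cannot be told apart. From the spacing of the lowest values, 1 RPKM stood for an estimated 99.4 to 198 reads per kb of exon in the 9 columns, with 71.1% to 73.5% of low values within 0.1 read of a whole number. The oocyte markers were high, with a summed level of 2510 to 3480 RPKM over 12 genes, of which 5 were lower at 60–65 than at 10–30 μm, 3 were higher and 4 did not pass the test. Sohlh1 fell most, from 49.6 and 45 RPKM to 1.17 and 1.74, followed by Figla, from 52.7 and 45 RPKM to 11.6 and 12.6. Zp2 and Ddx4 (log2 change -0.67 each) and Zp3 (-0.37) also fell, while Bmp15 (1.68), Oosp1 (1.12) and Gdf9 (0.35) rose. The 11 granulosa cell markers summed to 0.79 to 4.1 RPKM and the 9 theca and stroma markers to 0.569 to 4 RPKM. The granulosa sum was higher and the theca and stroma sum lower at 60–65 than at 10–30 μm in every library. Both granulosa markers that passed the filter rose, and they passed it only through the 50–55 and 60–65 μm classes, where they were high. Cyp19a1 (aromatase) went from 0.161 and 0.159 RPKM to 1.25 and 1.04 (log2 change 2.25, SE 0.14, limma adjusted p = 7.81e-06). Inha went from 0.136 and 0.2 RPKM to 0.542 and 0.528 (log2 change 1.25, SE 0.19, limma adjusted p = 0.000538), with 0.168 in GV oocytes. Below the filter, Foxl2, which defines granulosa cells, was at or below 0.0642 RPKM in all 9 columns, whereas Kitl went from 0.192 and 0.14 RPKM to 0.495 and 0.409 and Fshr from 0.0436 and 0.0545 to 0.238 and 0.229. In the theca and stroma list the collagen genes Col1a1, Col1a2 and Col3a1 passed the filter only with the 10–30 μm libraries, where they were high. They fell, with log2 changes of -1.84 to -1.32. The steroid genes of theca cells did not share this direction. Star was at 0.0217 and 0.0384 RPKM and then 0.0648 and 0.107, Cyp11a1 at 0 and 0.0106 and then 0.075 and 0.14, and Cyp17a1 at 0 in both libraries and then 0.0132 and 0.107. The 3 surface epithelium markers summed to 0.0486 and 0.0822 RPKM at 10–30 μm and to 0.569 and 0.619 at 60–65 μm, nearly all of it Upk3b. Upk3b rose (log2 change 2.07, SE 0.18, limma adjusted p = 3.58e-05) and passed the filter only through the 60–65 μm libraries, where it was high. Krt19 was listed at 0 in all 9 columns. The 6 blood, immune and vessel markers in the table were higher in sum in each larger class, going from 0.837 and 0.817 RPKM to 1.87 and 1.73, 3.58 and 3.26, then 5.08 and 4.66, with 6.03 in GV oocytes. Most of this sum was Pecam1, an adhesion molecule of vessel walls, the 1 marker of this list that passed the filter (log2 change 2.80, SE 0.12, limma adjusted p = 5.63e-06). Cdh5, also a vessel marker, went the other way near the floor, from 0.0101 and 0.00789 RPKM at 10–30 μm to 0.00239 and 0.00416 at 60–65 μm. Hba-a1 and Cd68 were higher at 60–65 μm, and Ptprc did not exceed 0.00823 RPKM. The part of these changes in the results below was not tested.

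The promoter windows of these genes were mostly rich in CpG. RefSeq promoter windows of 300 bases (250 before and 50 after a start, GRCm38.p6) were found for 41 of the 55 genes. Taking 1 window per gene, they held a median of 21 CpG (3 to 56), against a median of 7 over all 32851 windows of the table, which holds several for some genes. The windows of Fbxl2, Fbxl7, Fbxl16, Fbxl17, Fbxl20, Fbxo11, Fbxo30 and Fbxo44 did not hold the start given in the RNA table. CGCGC, read on both strands so that GCGCG counts as well, was present in 26 of the 41 (63.4%) and in 29.7% of all windows. No window was matched for the other 14, among them Fbxl5, Fbxl6, Fbxo16 and Fbxo43. The windows of 5 genes are shown, each from 5′ to 3′ on the strand of the gene with every CpG in capitals. They belong to Fbxl19, where methylation was gained at the start, Fbxo17, which had the largest rise in RNA, Fbxo34, among the most abundant members, and Fbxl14 and Fbxo40, which held the most and the fewest CpG.
Fbxl19 (chr7:127746525-127746824, + strand): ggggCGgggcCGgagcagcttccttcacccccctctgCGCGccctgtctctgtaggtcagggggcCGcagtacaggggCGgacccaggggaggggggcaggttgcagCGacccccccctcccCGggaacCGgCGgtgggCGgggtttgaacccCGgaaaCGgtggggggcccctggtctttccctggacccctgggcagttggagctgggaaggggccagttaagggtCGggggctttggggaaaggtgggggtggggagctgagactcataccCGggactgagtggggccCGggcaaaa
Fbxo17 (chr7:28716532-28716831, + strand): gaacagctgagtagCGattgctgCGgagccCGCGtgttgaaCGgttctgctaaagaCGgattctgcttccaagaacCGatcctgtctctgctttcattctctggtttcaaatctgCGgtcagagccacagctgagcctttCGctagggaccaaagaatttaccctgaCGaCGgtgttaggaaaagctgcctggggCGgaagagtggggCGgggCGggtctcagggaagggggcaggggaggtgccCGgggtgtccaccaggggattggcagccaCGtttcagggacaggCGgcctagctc
Fbxo34 (chr14:47472311-47472610, + strand): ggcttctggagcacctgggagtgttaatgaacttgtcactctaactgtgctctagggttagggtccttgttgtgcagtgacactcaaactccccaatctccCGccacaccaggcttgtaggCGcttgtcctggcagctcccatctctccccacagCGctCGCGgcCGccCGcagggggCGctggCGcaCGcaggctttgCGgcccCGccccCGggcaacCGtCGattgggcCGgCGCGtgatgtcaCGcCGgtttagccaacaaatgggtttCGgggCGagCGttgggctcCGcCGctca
Fbxl14 (chr6:119479418-119479717, + strand): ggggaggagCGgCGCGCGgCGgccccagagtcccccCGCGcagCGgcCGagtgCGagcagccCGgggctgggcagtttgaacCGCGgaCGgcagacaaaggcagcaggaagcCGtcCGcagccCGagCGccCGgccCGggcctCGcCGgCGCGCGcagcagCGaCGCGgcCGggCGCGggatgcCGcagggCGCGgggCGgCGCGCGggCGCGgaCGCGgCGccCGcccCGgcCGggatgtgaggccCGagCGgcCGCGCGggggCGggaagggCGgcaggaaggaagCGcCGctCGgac
Fbxo40 (chr16:36990418-36990717, - strand): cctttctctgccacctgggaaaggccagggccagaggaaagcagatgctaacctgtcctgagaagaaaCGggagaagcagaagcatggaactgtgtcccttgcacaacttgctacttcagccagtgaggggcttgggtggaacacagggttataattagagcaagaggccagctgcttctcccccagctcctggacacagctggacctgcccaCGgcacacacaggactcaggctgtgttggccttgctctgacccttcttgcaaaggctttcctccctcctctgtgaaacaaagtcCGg
The Fbxl19 window held 16 CpG in 71% G and C, the Fbxo17 window 17 in 59.3%, the Fbxo34 window 25 in 64.3%, the Fbxl14 window 56 in 82.7%, and the Fbxo40 window 3 in 56%.

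The members spanned the range from silent to abundant. In growing oocytes 34 to 37 of the 55 reached 1 RPKM in a given library and 16 to 18 reached 5 RPKM. Their summed level was 207 and 227 RPKM at 10–30 μm, 241 and 243 at 40–45 μm, 278 and 272 at 50–55 μm, then 308 and 295 at 60–65 μm, with 309 RPKM in GV oocytes. The sum was therefore higher in every library of a larger class than in every library of a smaller one. The 6 members of highest mean level over the 8 libraries of growing oocytes were Fbxl6 (23.8 RPKM), Fbxo34 (23.7), Fbxl19 (17.6), Fbxo28 (16.8), Fbxo5 (16.1) and Fbxo38 (13.7), and they made up 39.4% to 44.7% of the summed level. Fbxl6 and Fbxo34 each exceeded 97.7% of the entries in the table. At the other end, Fbxo2, Fbxo6, Fbxo24, Fbxo27, Fbxo32, Fbxo41, Fbxo44 and Fbxl16 stayed under 0.05 RPKM in all 8 libraries, and Fbxo4 reached at most 0.0522.

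Between 10–30 and 60–65 μm, more members rose than fell. Of the 42 members that passed the filter on low values (at least 0.5 RPKM in 2 of the 8 libraries), 23 were higher at 60–65 μm (54.8%) and 8 were lower (19%) by limma with Benjamini-Hochberg adjustment over all 10518 genes tested. Of all genes tested, 31.4% were higher and 31.9% were lower. Fewer members, and fewer of all genes tested, were called lower without replicate A of 10–30 μm or either replicate of 60–65 μm. Among members sharing under 10% of their exon bases with another gene, 5 were lower. The median log2 change was 0.45 over the tested members and -0.002 over all genes tested. By family, 16 of 27 tested Fbxo genes and 7 of 15 tested Fbxl genes were higher, and 4 of each were lower. Of the 42, Fbxo16, Fbxo17, Fbxo36, Fbxl17 and Fbxl22 were below 0.5 RPKM on average at 10–30 μm and so passed only through the larger classes, and these 5 are among the 23. Fbxo15 reached 0.5 RPKM only at 10–30 μm, so it passed only through the class where it is high, and it is among the 8. Of all 55 members, 13 were not tested.

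**Figure D1:**
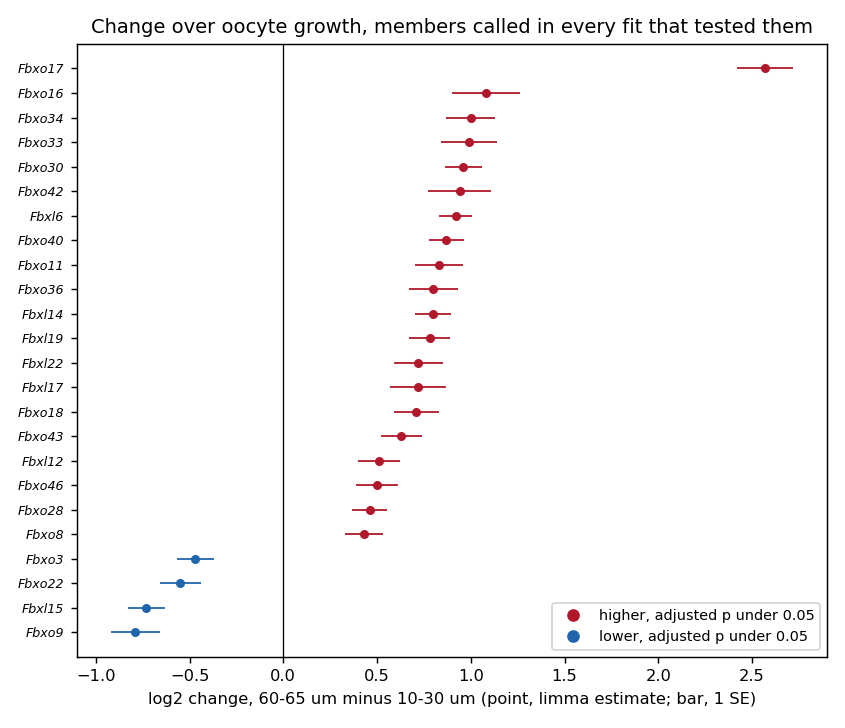
Log2 change from 10–30 to 60–65 μm (horizontal axis) for the 24 F-box genes called in every alternative that tested them, with bars of 1 SE from limma. The 20 genes that rose are in red and the 4 that fell in blue, and the estimates run from -0.79 for Fbxo9 to 2.57 for Fbxo17.

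Several members are tied to meiosis and the APC/C. Fbxo34, which acts at meiotic resumption, was at 13.8 and 17.5 RPKM at 10–30 μm, 20.1 and 22.1 at 40–45 μm, 26.7 and 26.5 at 50–55 μm, 34.9 and 27.8 at 60–65 μm, and 35.5 in GV oocytes. No library of one class overlapped with the next, and the log2 change over growth was 1.00 (SE 0.13, limma adjusted p = 0.000247). Fbxo30, an F-box protein needed for chromosome segregation in oocyte meiosis, was at 5.09 and 5.72 RPKM at 10–30 μm and at 10.6 and 10.5 at 60–65 μm, with the 2 middle classes between them. Its log2 change was 0.96 (SE 0.1, limma adjusted p = 8.15e-05). Fbxo5 (Emi1) and Fbxo43 (Emi2) are inhibitors of the APC/C, the second of which holds eggs in the second meiotic arrest. Fbxo5 was the more abundant, with 13.4 and 13.8 RPKM at 10–30 μm and 18 and 19.1 at 60–65 μm. Fbxo43 was at 6.05 and 5.73 RPKM at 10–30 μm, at 8.92 and 9.46 at 60–65 μm and at 11.2 in GV oocytes. For both, all libraries at 60–65 μm lay above all libraries at 10–30 μm. The log2 change was 0.45 for Fbxo5 (SE 0.11, limma adjusted p = 0.00781) and 0.63 for Fbxo43 (SE 0.11, limma adjusted p = 0.00137). Without replicate B of 60–65 μm, Fbxo5 no longer passed (adjusted p = 0.056). Other members have roles in meiotic recombination. Fbxo18 (also Fbh1, a DNA helicase) rose from 9.64 and 8.82 RPKM to 15.8 and 14.5, and Fbxo47, which is required in meiotic prophase of spermatocytes, rose from 2.14 and 1.98 RPKM to 2.72 and 3.04. Without replicate B of 10–30 μm or of 60–65 μm the adjusted p of Fbxo47 passed 0.05, up to 0.0919.

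**Figure D2:**
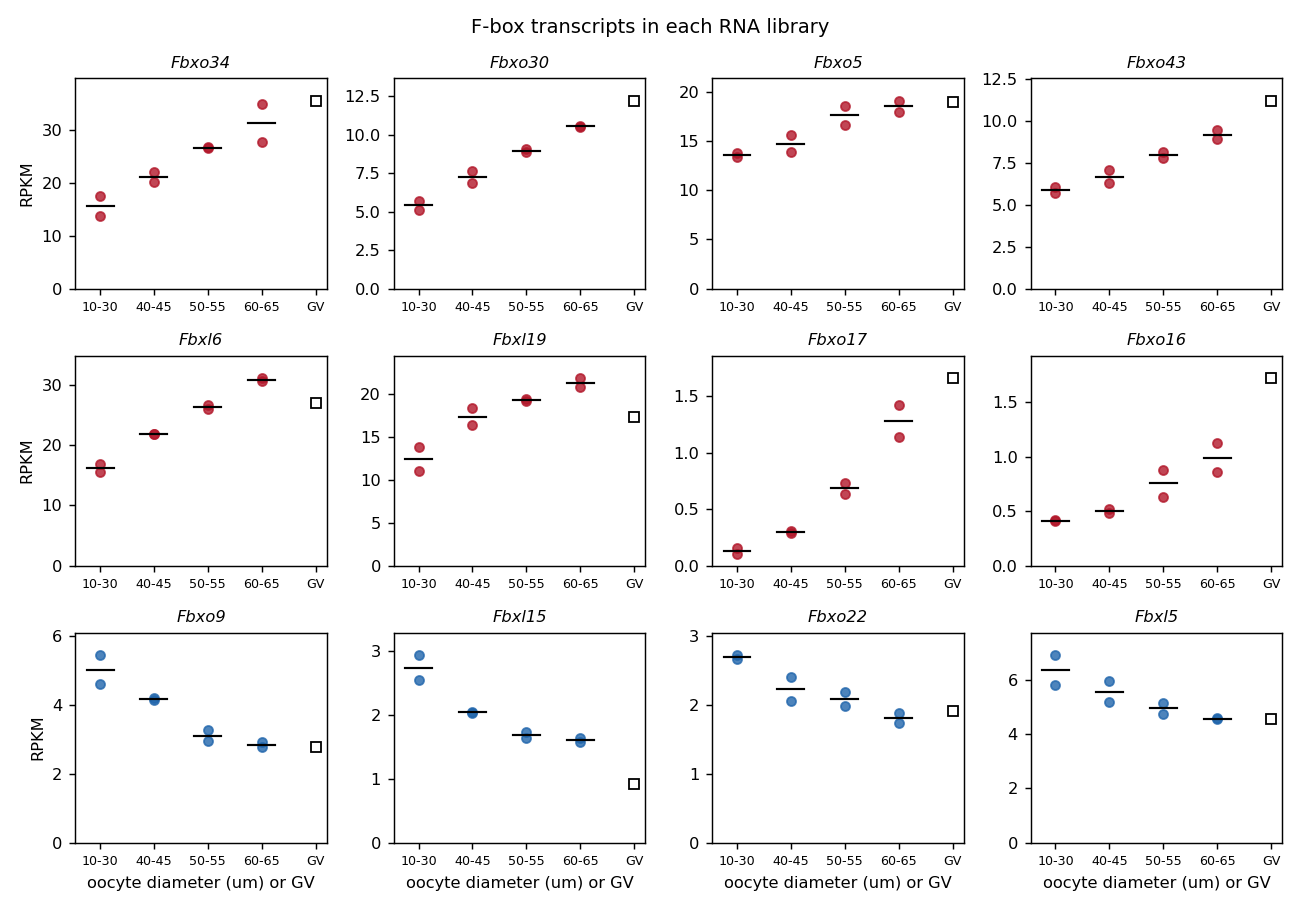
RPKM (vertical axes, each from 0) of 12 F-box genes in the RNA libraries, with oocyte diameter in μm or GV on the horizontal axis. Filled circles are the 2 libraries of a class, black lines their mean and open squares the GV column, and red marks genes that rose and blue genes that fell over growth. Fbxo17 climbs from 0.132 to 1.28 RPKM on average, whereas Fbxo9 declines from 5.02 to 2.85.

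The largest rise belonged to Fbxo17, a member of the group of F-box proteins that bind sugar chains of glycoproteins. Fbxo17 was at 0.105 and 0.159 RPKM at 10–30 μm, 0.304 and 0.287 at 40–45 μm, 0.637 and 0.728 at 50–55 μm, then 1.42 and 1.14 at 60–65 μm, with 1.66 in GV oocytes. The classes did not overlap at any step. The log2 change over growth on the log2(RPKM + 0.1) scale was 2.57 (SE 0.15, limma adjusted p = 7.27e-06). With 1 RPKM added in place of 0.1 it was 1.00, beside 0.96 for Fbxo34, since a larger added value shrinks the change of genes at low level. The estimated reads behind the Fbxo17 values were 26 and 63 at 10–30 μm against 372 and 517 at 60–65 μm. The 4 relatives of Fbxo17 in this group, Fbxo2, Fbxo6, Fbxo27 and Fbxo44, did not exceed 0.0319 RPKM in any library of growing oocytes. Fbxo27 lies next to Fbxo17 on chromosome 7, with starts at 28692849 and 28716804, and was at 0.00278 to 0.0126 RPKM over the 8 libraries. Fbxo2 and Fbxo44 were listed at 0 in 6 of the 8 libraries each. Within this group, Fbxo17 alone passed the filter on low values, and only through the 50–55 and 60–65 μm libraries, where it was high.

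Among Fbxl genes, the most abundant pair rose at the first step. Fbxl6, for which little is known, was at 15.5 and 16.9 RPKM at 10–30 μm, 21.9 and 21.8 at 40–45 μm, 26.7 and 26 at 50–55 μm, then 31.1 and 30.6 at 60–65 μm. Fbxl19, whose CXXC zinc finger binds unmethylated CpG, was at 11.1 and 13.8 RPKM at 10–30 μm, 18.4 and 16.4 at 40–45 μm, 19.2 and 19.5 at 50–55 μm, then 21.9 and 20.8 at 60–65 μm. Neither gene had overlapping classes in growing oocytes. Both were lower in GV oocytes than in the 2 libraries at 60–65 μm, with 26.9 RPKM for Fbxl6 and 17.3 for Fbxl19. The log2 change over growth was 0.92 for Fbxl6 (SE 0.087, limma adjusted p = 4.62e-05) and 0.78 for Fbxl19 (SE 0.11, limma adjusted p = 0.000465).

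Other rises covered several known substrates. Fbxl14, which targets the transcription factor Snail, went from 7.55 and 9.11 RPKM at 10–30 μm to 14.6 and 14.5 at 60–65 μm (log2 change 0.80, SE 0.095). Fbxo11, which targets the repressor Bcl6, went from 4.21 and 6.01 RPKM to 9.36 and 8.76 (log2 change 0.83, SE 0.13). Fbxo33, which targets the RNA-binding protein Ybx1, went from 4.86 and 4.54 RPKM to 9.3 and 9.64 (log2 change 0.99, SE 0.15). In none of these 3 genes did the smallest and largest classes overlap. Fbxo40, known as a muscle gene that turns over Irs1, was well above its muscle companion Fbxo32 (atrogin-1). Fbxo40 was at 5.54 and 6.33 RPKM at 10–30 μm and at 11.1 and 10.8 at 60–65 μm (log2 change 0.87, SE 0.095), whereas Fbxo32 did not exceed 0.0329 RPKM in growing oocytes. Fbxo42 rose from 2.3 and 3.1 RPKM to 6.25 and 4.37 (log2 change 0.94, SE 0.17) and Fbxo16, at low level, from 0.418 and 0.405 to 1.12 and 0.855 (log2 change 1.08, SE 0.18). Fbxo36 rose from 0.323 and 0.381 RPKM to 0.762 and 0.62, Fbxl17, which removes wrongly paired BTB proteins, from 0.455 and 0.537 to 0.995 and 0.779, and Fbxl22 from 0.269 and 0.321 to 0.566 and 0.537. With 1 RPKM added, the log2 change was 0.49 for Fbxo16, 0.32 in place of 0.80 for Fbxo36, 0.33 in place of 0.72 for Fbxl17 and 0.26 in place of 0.72 for Fbxl22, and all 4 still passed. The remaining 5 that rose were Fbxo8, Fbxo28, Fbxo46, Fbxl12 and Fbxl18, with log2 changes of 0.43 to 0.62, and Fbxl18 did not pass without replicate A of 60–65 μm (adjusted p = 0.0547). Of the exon bases of Fbxl12, 37.1% overlap Ubl5 on the opposite strand. The libraries kept strand, but whether counting used it is not given in the sources used here, so reads of such a pair may be mixed.

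The 8 members that fell lost less than Fbxo17 gained. Fbxo9, which targets the kinase-stabilising proteins Tel2 and Tti1, was at 5.45 and 4.6 RPKM at 10–30 μm, 4.2 and 4.16 at 40–45 μm, 3.26 and 2.95 at 50–55 μm, then 2.93 and 2.77 at 60–65 μm. Its classes did not overlap, and the log2 change was -0.79 (SE 0.13, limma adjusted p = 0.000779). Fbxl15, which targets the ubiquitin ligase Smurf1, was at 2.54 and 2.93 RPKM at 10–30 μm, 2.04 and 2.03 at 40–45 μm, 1.73 and 1.63 at 50–55 μm, 1.58 and 1.64 at 60–65 μm and 0.924 in GV oocytes. The log2 change over growth was -0.73 (SE 0.099, limma adjusted p = 0.000321), and 25.6% of the exon bases of Fbxl15 overlap Cuedc2 on the opposite strand. Fbxo22, which targets Kdm4 histone demethylases, fell from 2.72 and 2.67 RPKM to 1.74 and 1.88 (log2 change -0.55, SE 0.11), with 15.4% of its exon bases overlapping Nrg4. Fbxo3 fell from 3.49 and 3.52 RPKM to 2.49 and 2.52 (log2 change -0.47, SE 0.098).

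Further calls of a fall depended on single libraries. Fbxl5, the iron sensor that targets Ireb2, was at 6.91 and 5.81 RPKM at 10–30 μm and 4.61 and 4.54 at 60–65 μm (log2 change -0.46, SE 0.14, limma adjusted p = 0.0175). The call of Fbxl5 was lost without replicate A of 10–30 μm (log2 change -0.30) and without replicate A (-0.46) or B (-0.45) of 60–65 μm. Fbxo15, known as a gene of pluripotent cells, was at 0.938 and 0.543 RPKM at 10–30 μm and between 0.41 and 0.477 in the 6 other libraries of growing oocytes (log2 change -0.65, or -0.28 with 1 RPKM added, SE 0.22, limma adjusted p = 0.0315). Having entered the test through the 10–30 μm libraries alone, it did not pass with no filter on low values (adjusted p = 0.067) or without either library of 60–65 μm, with an adjusted p of up to 0.114. Fbxl2 had the smallest fall, from 4.66 and 4.34 RPKM to 3.52 and 3.68 (log2 change -0.31, SE 0.11, limma adjusted p = 0.0296), and 11.2% of its exon bases overlap Ubp1. The call of Fbxl2 was lost without replicate A of 10–30 μm (log2 change -0.22) and without any single library of 50–55 or 60–65 μm (-0.35 to -0.27). In all 8 members, the 2 libraries at 60–65 μm lay below those at 10–30 μm.

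For 11 tested members no change passed. Fbxo21 and Fbxo38 were the most abundant of them. Fbxo21 was at 11.4 and 14 RPKM at 10–30 μm and 12 and 11.8 at 60–65 μm (log2 change -0.08, SE 0.12), and Fbxo38 was at 14.1 and 15.6 and at 12.4 and 13 (log2 change -0.22, SE 0.1, limma adjusted p = 0.0922, 0.0423 to 0.343 over the alternatives). Fbxo7, which is needed for mitophagy, had a log2 change of -0.11 (SE 0.1), Fbxl4, a mitochondrial protein, of -0.10 (SE 0.13), and Fbxo31, which targets cyclin D1, of -0.20 (SE 0.093). Fbxo45 had a log2 change of 0.31 (SE 0.15, limma adjusted p = 0.101), which passed only without replicate B of 10–30 μm (0.54, adjusted p = 0.00354) and was 0.06 without replicate A (adjusted p = 0.658, the highest over its alternatives). Fbxl8 had a log2 change of 0.23, Fbxl20 of 0.14, Fbxo10 of 0.11, Fbxo25 of 0.08 and Fbxl7 of -0.15. Fbxl7 had the largest SE of the tested members (0.32), with 0.436 and 0.767 RPKM at 10–30 μm. Among the 13 members under the filter, Fbxl13 moved most, with 0.118 and 0.0954 RPKM at 10–30 μm and 0.457 and 0.367 at 60–65 μm. Fbxl21 stayed between 0.346 and 0.404 RPKM, Fbxo48 between 0.1 and 0.168 and Fbxo39 between 0.0702 and 0.199.

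The steps between neighbouring classes were then compared. Class means rose at each of the 3 steps for 23 of the 42 tested members, as for 30.4% of all genes tested, and fell at each step for 10, as for 30.2% of all genes tested. Both libraries at 60–65 μm lay above both at 10–30 μm for 26 members, against 40.6% of all genes tested, and below them for 11, against 41.7%. From 10–30 to 40–45 μm, 7 members were higher, as were 12.7% of genes tested, and only Fbxl15 was lower, as were 10.4% of genes. The 7 were Fbxl6, Fbxl14, Fbxl19, Fbxo11, Fbxo17, Fbxo30 and Fbxo34. Fewer members, and fewer of all genes tested, were called higher without replicate A of 10–30 μm or replicate A of 40–45 μm. Fbxl15 was not called at this step when any 1 of the 8 libraries was left out. Without the scaling between libraries, 5 members were higher and 2 lower at this step, and all genes split into 1088 higher and 1521 lower in place of 1334 and 1095. From 40–45 to 50–55 μm, Fbxo17, Fbxo36 and Fbxo40 were higher and no member was lower, against 5.69% and 3.25% of genes tested. Fewer members, and fewer of all genes tested, were called higher at this step when a library of 40–45 or 50–55 μm was left out. For the count of 0 lower, 4 members were lower at an unadjusted p under 0.05, as were 13.7% of all genes tested.

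From 50–55 to 60–65 μm, limma called 0 members and 0 genes higher (0%) and 0 members and 0 genes lower (0%). At an unadjusted p under 0.05 there was 1 member higher and 0 lower, with 7.05% of all genes higher and 6.6% lower. That member was Fbxo17, with a log2 change of 0.79 (SE 0.15, limma adjusted p = 0.134). Of the change over growth, Fbxl14 had 71.7% in the first step and Fbxl19 69.3%. Fbxo36 instead had 88.8% in the second step, and Fbxo42 48.1% in the second and 36.1% in the third.

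Differences between GV oocytes and the 60–65 μm class were under 2-fold in these genes, as in nearly all genes. No tested member differed at least 2-fold between GV and the mean of the libraries at 60–65 μm, and 0.352% of genes tested were at least 2-fold higher and 0.295% at least 2-fold lower. The GV column has no replicate and was not tested. The members furthest apart were Fbxo15, with 0.811 RPKM in GV oocytes against 0.43 and 0.412 at 60–65 μm (1.75-fold on the log2(RPKM + 0.1) scale), and Fbxo16, with 1.72 against 1.12 and 0.855 (1.67-fold). Fbxl15 was lowest, at 0.924 RPKM against 1.58 and 1.64 (0.599-fold). Fbxo15, which had fallen over growth, was thus at 0.811 RPKM in GV oocytes beside 0.938 and 0.543 at 10–30 μm.

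The core of the SCF ligase held genes that rose and genes that fell. Of 28 listed core and regulatory genes in the table, 26 were tested, 3 were higher at 60–65 than at 10–30 μm and 9 were lower, with a median log2 change of -0.26, beside 31.4% higher and 31.9% lower over all genes tested. The adaptor Skp1a was the most abundant, at 282 and 269 RPKM at 10–30 μm and 253 and 256 at 60–65 μm (log2 change -0.12, SE 0.15). The scaffold Cul1 rose from 61.2 and 56.6 RPKM to 88.5 and 91.8 (log2 change 0.61, SE 0.14), and the exchange factor Cand1, which swaps F-box subunits, rose from 8.2 and 9.99 to 12.9 and 12.6 (log2 change 0.48, SE 0.1). Uba3, part of the enzyme that activates Nedd8, rose as well (log2 change 0.64, SE 0.18). The RING protein Rbx1 fell from 18.9 and 14.4 RPKM to 10.3 and 10.3 (log2 change -0.68, SE 0.15). Nedd8, the modifier that activates cullins, fell from 50.8 and 42.2 RPKM to 26.8 and 26.7 (log2 change -0.79, SE 0.13), and the ubiquitin-conjugating enzyme Cdc34 had a log2 change of -0.53. The other falls were of Ube2d3, Dcun1d3 and the COP9 signalosome genes Cops3, Cops5, Cops6 and Cops7b, whose product takes Nedd8 off cullins.

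Among F-box genes outside the rule, of 16 listed, 13 were tested, 4 were higher and 3 lower, with a median log2 change of 0.05, near the shares of 31.4% and 31.9% over all genes tested. The rises were of Fbxw4, from 1.72 and 1.65 RPKM to 7.42 and 6.43 (log2 change 1.97, SE 0.12), Kdm2b, which binds CpG islands like Fbxl19, from 2.45 and 3.96 to 11.8 and 9.29 (log2 change 1.72, SE 0.19), Btrc (0.76) and Kdm2a (0.41). The falls were of Fbxw2 (-0.93), Fbxw5 (-0.85) and Fbxw7 (-0.69). Of 19 partners and targets of named members in the table, 17 were tested, 5 were higher and 5 lower, again near the shares over all genes tested. Cry1, a repressor of the circadian clock, rose from 10.5 and 10 RPKM to 24.4 and 18.6 (log2 change 1.04, SE 0.18), and Ireb2, the target of Fbxl5, from 3.94 and 4.22 to 5.44 and 6.19 (log2 change 0.50, SE 0.15). The APC/C activator Cdc20 rose (log2 change 0.82, SE 0.1), as did the subunits Anapc1 and Cdc27, while Anapc5, Anapc11, Anapc13, Cdc16 and Cdc26 fell.

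Methylation was then set beside these genes. Values are means over CpG positions with at least 5 reads, and the libraries held 29942043 to 57215134 methylation calls in RRBS and 98148116 in PBAT, with a median of 2 calls per covered position in PBAT. Comparisons between size classes rest on 2 libraries each, for which an exact permutation test cannot go below p = 0.333, so they are given as values. Within 1 kb of the start, all 46 members measured in RRBS at 60–65 μm were below 25%, and 1.38% of the 12878 genes measured reached it. The median over members was 0.682% at 60–65 μm and 0.755% at 40–45 μm, against 0.649% and 0.608% over all genes measured. Of the 44 members measured in all 6 RRBS libraries, 42 stayed at or under 5% in each, a count that was not made over all genes. Fbxl19 was among those that did not. Fbxo2 and Fbxo44 start beside each other in opposite directions and share their RRBS positions.

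At the start of Fbxl19, whose window is shown above, RRBS gave 0.414% and 0.442% at 40–45 μm, 3.93% and 0% at 50–55 μm, then 12.9% and 24.8% at 60–65 μm, over 23 to 36 positions, and PBAT gave 24.5% over 51 positions. Both libraries at 60–65 μm lay above the 4 others. By PBAT, Fbxo16 (13.9%), Fbxl5 (11.4%) and Fbxo15 (10.5%) also exceeded 10% at their starts, and RRBS did not measure these 3. The windows of Fbxo17, Fbxo34, Fbxl14 and Fbxo40 lay in starts of 2.82%, 2.91%, 2.9% and 3.33% in PBAT.

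**Figure D3:**
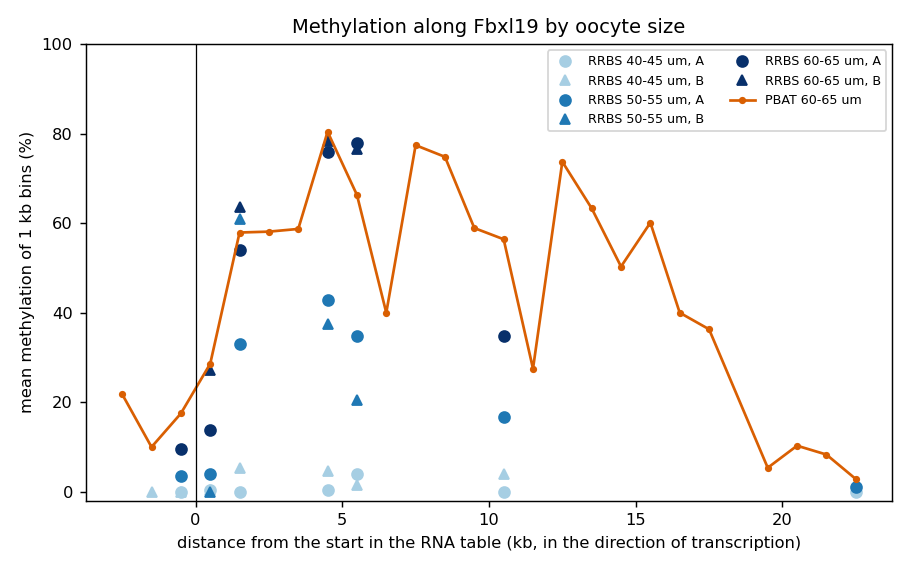
Mean methylation (%) of 1 kb bins along Fbxl19 against distance in kb from its start in the RNA table, for bins with at least 3 positions. Blue symbols are the 6 RRBS libraries, darker with oocyte size, and the line is the PBAT library. Bins from 1 to 2 kb hold 0% and 5.27% at 40–45 μm and 54% and 63.6% at 60–65 μm.

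Along Fbxl19 (chr7:127746775-127768927, + strand, GRCm38), methylation in PBAT was higher inside the gene than at its start and low again at its end. In the first kb after the start PBAT gave 28.6% and in the next kb 57.9%, and between 4 and 5 kb it gave 80.4%, over 32, 33 and 9 positions. The last bins of the gene, from 19 to 23 kb, were at 2.86% to 10.3%. In RRBS the bin from 1 to 2 kb was at 0% and 5.27% at 40–45 μm, 32.9% and 60.9% at 50–55 μm, then 54% and 63.6% at 60–65 μm, so that in this bin the 50–55 μm libraries already lay above those at 40–45 μm. In the bin before it, from 0 to 1 kb, the values were 0.497% and 0.519%, 4.01% and 0%, and 13.7% and 27.1%. Of the 7 protein-coding GENCODE transcripts of Fbxl19, 2 start within 1 kb of the start in the table, and the median start lies 0.989 kb upstream of it.

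Gene bodies, counted from 2 kb after the start, ranged from 3.32% to 65.7% in PBAT. Of the 50 members measured, 16 were at or above 50% (32%), against 29.8% of the 17080 genes measured. The median was 34% over members and 29.7% over all genes. Members below 0.5 RPKM at 60–65 μm had a median of 7.81% (13 genes), those from 0.5 to 5 RPKM one of 42.3% (22 genes) and those of 5 RPKM or more one of 43.6% (15 genes), where all genes had 9.79%, 51.7% and 49.9%. Across the 50 members, body methylation and log2(RPKM + 0.1) had a Spearman rho of 0.54, and across all genes one of 0.651. These are correlations across genes, which are not independent replicates, and the values share base composition and depth of single libraries. The most methylated bodies were those of Fbxl4 (65.7%), Fbxo47 (65.4%), Fbxo21 (65.3%), Fbxo3 (64.7%) and Fbxo7 (64.3%), at 1.34 to 11.9 RPKM. Among members of 10 RPKM or more, the lowest bodies were those of Fbxo30 (22.8% over 15 positions), Fbxo34 (31.7%) and Fbxo40 (31.7%).

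**Figure D4:**
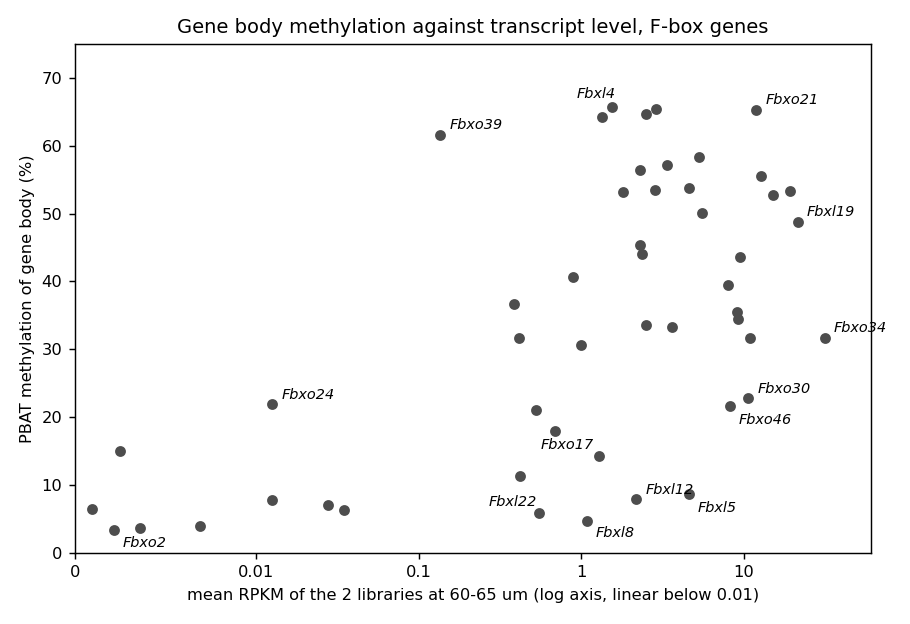
PBAT methylation of the gene body (%) against the mean RPKM of the 2 libraries at 60–65 μm on a log axis (linear below 0.01), 1 point for each of 50 F-box genes. Fbxo39 stands at 61.6% with 0.136 RPKM, while Fbxl5, Fbxl12 and Fbxl8 stand below 10% at 1.08 to 4.58 RPKM.

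A few members departed from this order. Fbxo39 had 61.6% over 40 positions at only 0.136 RPKM, the 1 member below 0.5 RPKM to reach 50%. Below 10% at 2 RPKM or more were Fbxl5 (8.69% over 314 positions at 4.58 RPKM) and Fbxl12 (7.86% over 152 positions at 2.17 RPKM), and Fbxl8 had 4.74% at 1.08 RPKM. For Fbxl5 the value differed with where the gene is taken to begin. The table starts it at 43821639 on chromosome 5 on the - strand, and 1 of its 9 protein-coding GENCODE transcripts starts there, whereas their median start lies 39.5 kb downstream, at 43782121. Between the starts PBAT gave 6.66% over 108 positions, and from 2 kb after the median start to the end of the gene it gave 62.7% over 25 positions. Of the 314 positions, 177 lay around the median start, from 36 to 40 kb after the start in the table, at 2.73%. For Fbxl2, which the table starts 19.4 kb upstream of its coding start, the values were 9.71% over 99 positions and 42.7% over 386. Fbxo18, Fbxo10 and Fbxl20, with start distances of 20 to 22.6 kb, had 51.5% to 57% between the starts and 55% to 65.5% after the median start. These genes have an even number of coding transcripts, for which the lower genomic coordinate of the middle pair stood as the median. On their - strand this is the more downstream start of the pair. This split by start was chosen after the low value of Fbxl5 was seen.

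In RRBS, 22 members had body values in all 6 libraries. Both libraries at 60–65 μm lay above both at 40–45 μm for 15 of them, as for 67.3% of all 6988 genes so measured. Fbxo42 was at 2.25% and 0.874% at 40–45 μm, 34.6% and 33.1% at 50–55 μm, then 66.9% and 67% at 60–65 μm. Fbxl20 was at 0% and 10.7%, then 31.1% and 47.2%, then 61.3% and 77%. Fbxo31 was at 1.48% and 2.56%, then 19.8% and 22.7%, then 45.7% and 51%. In these 3 genes, and in Fbxl2, Fbxl17, Fbxl18, Fbxl19 and Fbxl22, no library of a class overlapped with another class. The share of all genes with such a separation was not counted. Fbxo17 was at 1.52% and 0.476%, then 9.53% and 41.9%, then 18.5% and 24.7%, with replicate B of 50–55 μm above both larger-class libraries on 5 positions. Among members under 0.05 RPKM, Fbxo2, Fbxo41 and Fbxl16 stayed at or below 4.17% in all 6 libraries. Fbxo6, at 0.0025 RPKM at 60–65 μm, was at 0.992% and 0.275%, then 3.45% and 33.2%, then 5.58% and 8.12%.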

How the data were processed

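Total RNA libraries of 9 columns and 7 methylation libraries (16 samples) were used. Per the submitters' processing notes and the methods, reads were trimmed with Trim Galore (0.3.5 and 0.2.8), bisulphite reads were aligned to GRCm38 with Bismark (0.14.0 and 0.10.0) and RNA reads with TopHat2 (2.0.9). The authors deposited RPKM values per reference gene, and which of Cufflinks and SeqMonk made them is not given in the sources used here. For each covered CpG cytosine the authors deposited the percent methylated and the counts of methylated and unmethylated calls, and the percent was computed again from the counts.

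RPKM were scaled by a trimmed mean (factors 0.9568 to 1.049), and log2(RPKM + 0.1) of the 8 libraries of growing oocytes was fitted in 1 model with limma 3.58.1 (R 4.3.3), with a trend in the variance, for genes of at least 0.5 RPKM in 2 libraries. A Benjamini-Hochberg adjusted p under 0.05 was called. The test was also run on simulated data, and the outcome is not given here. Gene starts (1 kb to each side, at least 5 positions) and bodies (from 2 kb after the start, genes of at least 4 kb, at least 10 positions in PBAT and 5 in RRBS) were given the mean over positions of at least 5 reads. Python 3.11.15 and GENCODE starts and exons (GRCm38) were used, and RefSeq (GRCm38.p6) gave the promoter windows.

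The letters A and B were not treated as pairs. Alternatives were another pseudocount (1 RPKM), other filters, no scaling, no trend, a replicate block, each library left out, other read minimums (3 and 10) and a window of 500 bases. Named genes were the 12 largest rises and 12 largest falls called over growth, the 6 most abundant members, members with known roles, members called in opposite directions, members 2-fold apart in GV oocytes and members with a methylated start or a body under 10% at 2 RPKM or more, and the other members were added to account for all. The members, gene lists and tests were chosen with earlier results of these data known. The values of 1 member are not reported here.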

Additional observations from a re-analysis of the deposited data

How the results depend on the processing

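Over the whole of growth (10–30 to 60–65 μm), 24 of the 31 members called passed in every alternative that tested them, 20 of the 23 that rose and 4 of the 8 that fell, and no change reversed. Of these 24, Fbxo16, Fbxo17, Fbxo36, Fbxl17 and Fbxl22 were not tested with the filter of 2 RPKM, which left 18 rises and 7 falls, nor was Fbxl22 without either library of 60–65 μm. The count of rises stayed within 1.5 times in all. With a pseudocount of 1 RPKM, no call over growth changed, but the log2 changes of Fbxo15, Fbxo16, Fbxo17, Fbxo36, Fbxl17 and Fbxl22 shrank more than 1.5 times. Without replicate B of 10–30 μm, Fbxo45 was also called higher. Leaving out each library in turn gave 20 to 23 rises and 4 to 8 falls over growth. At the first step it gave 2 to 8 higher and 0 to 2 lower, at the second 0 to 4 higher and 0 to 1 lower (Fbxo9, without either library of 10–30 μm), and at the third 0 in both directions. With a replicate block, 2 members were lower from 10–30 to 40–45 μm (the second being Fbxo25), 1 was lower from 40–45 to 50–55 μm (Fbxo9), and 1 was higher from 50–55 to 60–65 μm (Fbxo17), where the block called 166 genes higher and 80 lower in place of 0. With the block, Fbxo38 was also called lower over growth, giving 9 falls, and rises went from 7 to 9 at the first step and from 3 to 4 at the second. The letters were not established as pairs: deviations of same-lettered libraries correlated at 0.588 to 0.67 among the 3 smaller classes and at -0.227 to 0.113 between these and 60–65 μm. Without scaling, 2 were lower from 10–30 to 40–45 μm (again Fbxl15 and Fbxo25). With a filter of 2 RPKM, 1 was higher from 40–45 to 50–55 μm. With no filter, Fbxl13 was also called higher (log2 change 1.30, SE 0.22, limma adjusted p = 0.00336) and Fbxo6 lower (-0.26), and Fbxo6 did not exceed 0.0319 RPKM. Among members sharing under 10% of their exon bases with another gene, an alternative chosen after seeing the data, 22 were higher and 5 lower. The cause of these shifts was not tested, save that the last leaves out 4 genes. The count of bodies at 50% or more was 14 with at least 3 reads, 12 with at least 10 and 18 when counted from the median coding start (also chosen after seeing the data). For an even number of coding transcripts this median was the lower genomic coordinate of the middle pair, so it depended on strand. The counts of 0 for starts in RRBS and for GV oocytes did not change in the alternatives run. Fbxo2 and Fbxo44 had at most 1 estimated read in any library, too few to show a change.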
